A study of Mus musculus with 6 samples.

Results

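Epiblast-like cells (EpiLC) that had received CHIR99021 (CHIR) were set against untreated EpiLC, 1 array a group, which are 2 of the 6 arrays of the series, chosen by their titles. EpiLC resemble the early post-implantation epiblast. They had been induced over 2 days from EB3 cells, a mouse embryonic stem cell (mESC) line, in N2B27 medium that held Activin A at 20 ng/ml and bFGF at 12 ng/ml, and both groups share this medium. The treated culture had 3 µM CHIR for 24 hours, and how those hours lay within the induction is not stated in the labels. Beside the pair stand an array of EpiLC given, for 24 hours, PD0325901 (PD, which blocks the kinase MEK) at 1 µM together with CHIR at 3 µM, and arrays of mESC kept in LIF and BMP4 with CHIR, with CHIR and PD, or untreated. All 6 cultures come from 1 line. The arrays were Affymetrix Mouse Gene 2.0 ST arrays of total RNA, and values are linear intensities with a lowest value of 16. With 1 array a group no difference has an error or a p-value, the spread between cultures is unknown, and precision is limited by there being so few arrays. Groups are therefore described by the size of the log2 difference, CHIR minus untreated, and by the number of genes that differ at least 2-fold. The probes of a gene differ in brightness, so intensities are compared between arrays for the same gene and not between genes.

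CHIR blocks glycogen synthase kinase 3, the kinase that marks beta-catenin for destruction. Stabilised beta-catenin enters the nucleus, binds Tcf and Lef factors and activates their target genes, which is how Wnt ligands act. In the mouse epiblast, Wnt signalling together with Nodal and FGF forms the primitive streak, through which cells leave the epiblast as mesoderm and endoderm. Cells of the posterior streak that turn off epiblast genes and turn on T-box factors become presomitic mesoderm, the tissue from which somites are made.

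The untreated culture carried the marks of EpiLC. Fgf5, a growth factor made by epiblast cells after implantation, was at 1258 in untreated EpiLC and 36.0 in untreated mESC, and the naive factor gene Esrrb was at 22.5 and 357 in the same order. Of 33793 probes, 23521 carried 1 gene symbol, and they measured 22180 genes. Median probe intensity lay between 60.5 and 65.2 on the 6 arrays, and it was 60.8 with CHIR and 63.5 without it in EpiLC. In RNA from whole cultures, more cells of a type and more RNA per cell cannot be told apart, which applies to every result that follows.

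With CHIR, more genes were at least 2-fold higher than at least 2-fold lower. Counted without a threshold, 9992 genes were higher and 12186 lower. At least 2-fold higher were 392 of 22180 genes (1.77%) and at least 2-fold lower were 206 (0.929%). At least 4-fold higher were 82 genes (0.37%) and at least 4-fold lower were 38 (0.171%). Most genes differed little, since 19436 genes (87.6%) lay within 0.5 log2 units of zero and the median difference was -0.03. The size that a difference can reach depends on brightness. Of the 3117 genes that did not exceed an intensity of 32 on either array, 0 were at least 2-fold different, which the lowest value of 16 fixes in advance. Of the 5876 genes above 32 and up to 64 on the brighter array, 4 were at least 2-fold higher and 15 lower. Of the 999 genes above 1024 on the brighter array, 42 were higher and 24 lower. Genes near the lowest intensity can thus show only compressed differences. With the values shifted so that the lowest is 64, 229 genes would be at least 2-fold higher and 114 lower. Under that shift 26 of the 204 genes named by rule would be within 2-fold, namely Apcdd1, Bmp2, Ccne1, Dazl, Ddx4, Dhrs3, Dll1, Egln3, Epha7, Ephb3, Gsc, Hormad1, Id1, Kdr, Lama1, Lamb1, Mov10l1, Nkx1-2, Notch1, Nr0b1, Rhox5, Rnf43, Sema3e, Snai1, Sox3 and Wnt5b. Of 18 genes measured by more than 1 probe and past 2-fold, 17 had all probes on the same side of zero and 1, Nkx1-2, did not. A probe on the same side can still be within 2-fold.

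**Figure D1:**
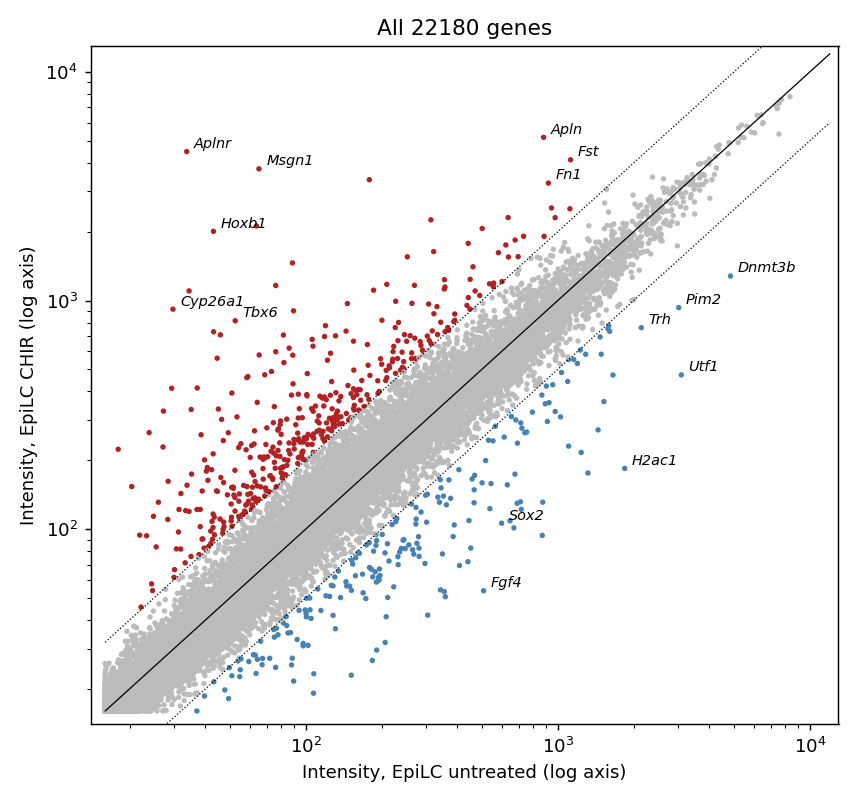
Intensity in CHIR-treated EpiLC (vertical, log axis) against intensity in untreated EpiLC (horizontal, log axis), each point 1 gene. Red points are the 392 genes at least 2-fold higher with CHIR and blue points the 206 at least 2-fold lower, the solid line is equality and dotted lines are 2-fold.

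The largest difference on the higher side was that of Aplnr. Aplnr, the receptor for apelin that guides mesoderm cells out of the streak, was at 4485 in EpiLC with CHIR and 356 with CHIR and PD, against 33.7 in untreated EpiLC, a log2 difference of 7.06 between CHIR and untreated. Its untreated value lay under the array's lower quartile of 34.5, and the gene was at 42.8 in mESC with CHIR and 45.0 in untreated mESC, so 1 array of these 5 stood far above the rest and the EpiLC array with both inhibitors stood between. Msgn1, a bHLH factor required for presomitic mesoderm, was at 3768 with CHIR and 51.7 with CHIR and PD, against 65.2 in untreated EpiLC (log2 difference 5.85). Tbx6, the T-box factor that commits streak cells to paraxial mesoderm, was at 816 and 61.3 with the same treatments, against 52.5 untreated (3.96). For both factors only the array with CHIR alone was high, and their mESC values were 55.7 and 60.2 with CHIR, against 51.4 and 62.2 untreated.

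Hoxb1, the 3′-most gene of its cluster and among the earliest Hox genes in the streak, was at 2008 with CHIR and 403 with CHIR and PD, against 43.0 in untreated EpiLC (5.54). In mESC it was at 87.7 with CHIR and 27.2 untreated, so of the 5 genes that mark this comparison it is the one that was also at least 2-fold higher in mESC. Cyp26a1, the enzyme that clears retinoic acid from the tail end of the embryo, was at 917 with CHIR and 29.9 with CHIR and PD, against 29.7 untreated (4.95). The array with both inhibitors was thus at the untreated level for Msgn1, Tbx6 and Cyp26a1, and between the other EpiLC arrays for Aplnr and Hoxb1.

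The remaining genes among the 15 highest were Lhx1, Hoxb2, Mixl1, Plxna2, Chst7, Rspo3, Foxc1, Slc44a5, Dkk1 and Pdgfra. Lhx1, a LIM homeobox factor of the anterior streak and node, was higher by 5.06 on the log2 scale, and Mixl1, a homeobox factor of the streak, by 4.24. Foxc1, a forkhead factor of paraxial mesoderm, was at 1164 with CHIR and 76.0 untreated. Pdgfra, the receptor tyrosine kinase that labels early mesoderm and primitive endoderm, was at 224 and 18.0 in the same order. Plxna2, a semaphorin receptor, was higher by 4.08 and Rspo3, a secreted amplifier of Wnt signalling, by 3.95. Chst7, a chondroitin sulfotransferase, was at 1461 with CHIR and 88.5 untreated. Of these 15 genes, 10 were under the median of all probes on the untreated array. With CHIR the 15 lay between 224 and 4485, against 18.0 to 179 in untreated EpiLC.

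**Figure D2:**
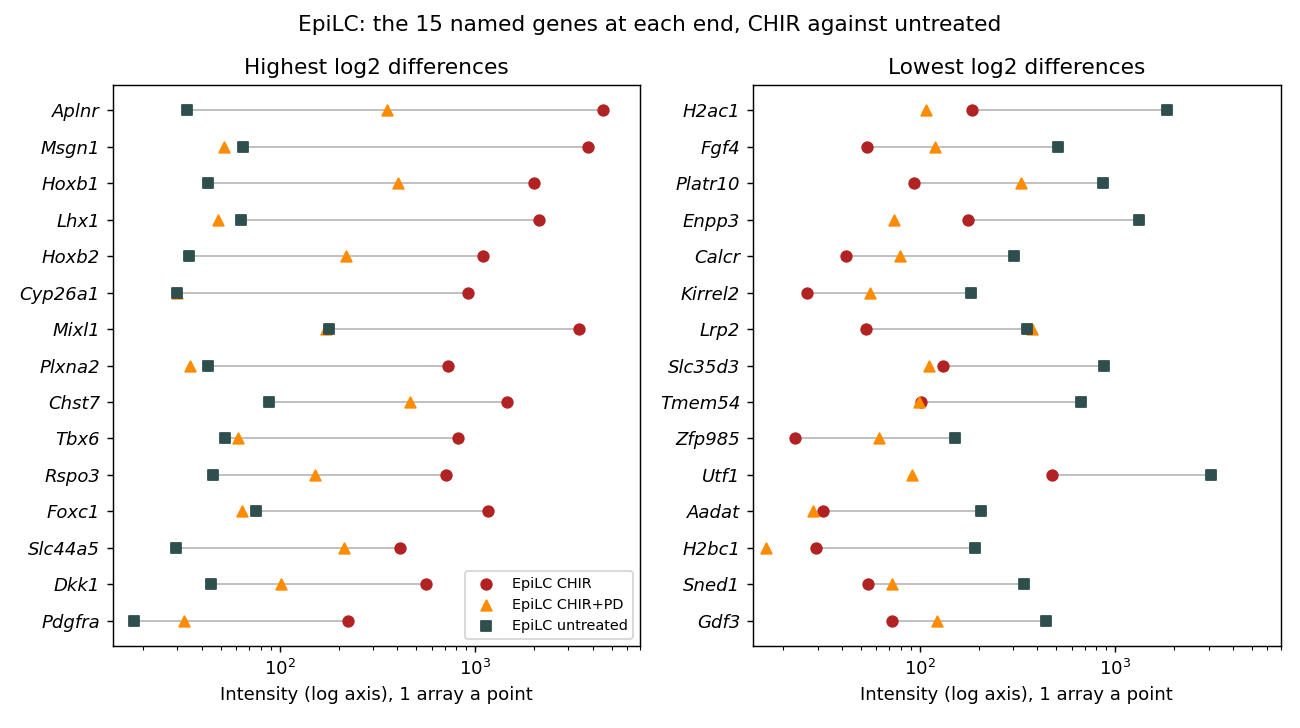
Intensity (horizontal, log axis) of the 15 named genes with the highest (left panel) and the 15 with the lowest (right panel) log2 difference, in EpiLC with CHIR (red circles), with CHIR and PD (orange triangles) and untreated (dark squares), 1 array a point. Lines join CHIR and untreated values, and the orange triangle of Aplnr lies between them whereas that of Msgn1 lies just left of the untreated square.

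On the lower side, the 15 genes included pluripotency genes and genes of several other kinds. Fgf4, the growth factor through which epiblast cells signal to themselves and their neighbours, was at 53.7 with CHIR and 119 with CHIR and PD, against 508 in untreated EpiLC (-3.24). Utf1, a chromatin-associated factor of pluripotent cells, was at 473 and 91.7, against 3091, and Gdf3, a ligand of the Nodal type, was at 72.0 and 122, against 440.0. In each of the 3 genes both treated EpiLC arrays were below the untreated one. The histone gene H2ac1 had the lowest difference (-3.32) and its neighbour H2bc1 was at -2.69. Calcr, the calcitonin receptor, was at -2.86, Lrp2, an endocytic receptor, at -2.73, and Enpp3, an ectonucleotidase, at -2.90. The remaining genes were Platr10, a non-coding transcript (-3.21), Kirrel2 (-2.79), Slc35d3 (-2.73), Tmem54 (-2.73), Zfp985 (-2.72), Aadat (-2.69) and Sned1 (-2.66). Zfp985 belongs to a family of near-identical zinc finger genes that can share probes, so its value is uncertain.

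Promoters of 4 genes on the higher side are shown because they hold the letters that Tcf/Lef factors or retinoic acid receptors are known to bind. Each is the 250 bases before the gene's start from RefSeq on GRCm38.p6, on the gene's own strand. Capitals mark CTTTGAA or CTTTGAT (the Tcf/Lef core, either strand) in the first 3 and, in the last, GTTCA and AGTTCA with 5 bases between them (a retinoic acid response element, either strand).
Msgn1, chr12:11208949-11209198, minus strand: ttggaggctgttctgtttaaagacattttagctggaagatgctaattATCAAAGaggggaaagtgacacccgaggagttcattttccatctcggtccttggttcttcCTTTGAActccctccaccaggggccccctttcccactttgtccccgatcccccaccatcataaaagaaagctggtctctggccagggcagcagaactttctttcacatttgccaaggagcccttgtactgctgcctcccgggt
Sp5, chr2:70474673-70474922, plus strand: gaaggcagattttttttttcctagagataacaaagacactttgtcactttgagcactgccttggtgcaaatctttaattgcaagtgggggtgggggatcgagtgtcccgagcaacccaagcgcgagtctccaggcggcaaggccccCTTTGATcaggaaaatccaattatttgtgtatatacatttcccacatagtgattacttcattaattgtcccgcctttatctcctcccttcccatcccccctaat
Dkk1, chr19:30549497-30549746, minus strand: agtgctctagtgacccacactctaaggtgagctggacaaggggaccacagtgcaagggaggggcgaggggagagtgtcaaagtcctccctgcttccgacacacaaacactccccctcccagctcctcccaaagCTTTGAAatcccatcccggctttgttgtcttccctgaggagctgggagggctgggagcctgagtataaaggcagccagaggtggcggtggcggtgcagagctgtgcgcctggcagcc
Cyp26a1, chr19:37697558-37697807, plus strand: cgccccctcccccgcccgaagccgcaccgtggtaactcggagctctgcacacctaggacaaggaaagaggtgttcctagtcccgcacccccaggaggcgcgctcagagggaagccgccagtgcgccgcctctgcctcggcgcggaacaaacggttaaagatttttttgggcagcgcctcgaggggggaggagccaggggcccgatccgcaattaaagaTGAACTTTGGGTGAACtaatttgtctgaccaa
The window of Msgn1 held both forms, with first bases 203 and 143 bases before the start. Sp5 held 1 site 104 bases before the start, Dkk1 held 1 at 117 bases, and the element of Cyp26a1 began 32 bases before it.

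The share of promoters with these letters was also counted over groups of genes. RefSeq's table held 376 promoters for 302 of the 392 genes at least 2-fold higher. Counted over 300-base windows that reach 50 bases past the start, CTTTGAA or CTTTGAT stood in 7.98% of them and in 7.17% of the 223 promoters of genes at least 2-fold lower, against 8.65% of all 32851 promoters. Taken singly, CTTTGAA stood in 3.72% of promoters of genes at least 2-fold higher, against 5.14% of all, and CTTTGAT in 4.79%, against 3.73%. Both forms differ in their last letter alone, so 1 site is never counted as both on the same strand. Among the 74 promoters of genes at least 4-fold higher the share was 12.2%. Of the 15 highest genes, 11 had a promoter there, and 2 of these held a Tcf/Lef form. AGGTGT (either strand), the core of T-box sites, stood in 11.2% of promoters of genes higher by at least 2-fold and 13.7% of all. Among promoters of genes at least 4-fold higher it stood in 17.6%. The retinoic acid element stood in 1 promoter of a gene at least 2-fold higher, that of Cyp26a1 (0.266%), and in 11 of all 32851 (0.0335%). These are matches of letters in short windows, and binding was not measured.

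Genes of the primitive streak and mesendoderm were higher as a group. Of 15 measured, 9 were higher by at least 2-fold and 0 lower, with a median log2 difference of 1.22, where 1.77% of all genes were higher. All lists were chosen with earlier results of these data known, so the counts of this and later lists are descriptions. For each later list too, the shares over all genes are 1.77% higher and 0.929% lower. All 15 were above zero, the smallest difference being 0.10 for Mesp1. Beside the leaders, Cer1, a secreted antagonist of Nodal, BMP and Wnt, was at 460.0 with CHIR and 51.9 with CHIR and PD, against 58.4 untreated. Evx1, a homeobox factor of the posterior streak, was at 777 and 109.8, against 119.7. Fgf8, the streak's FGF ligand, was at 286 and 533, against 91.3, and so it was highest on the array with both inhibitors, unlike Cer1 and Evx1. Gsc, the organiser homeobox gene, was higher by 1.22 and Kdr, a receptor of lateral and blood-forming mesoderm, by 1.12. Eomes, the T-box factor of the early streak, was at 389.9 with CHIR and 345 untreated, with a log2 difference of 0.18. The T gene itself had no probe with a single symbol.

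Genes of presomitic and paraxial mesoderm differed in part. Of 23 measured, 8 were higher by at least 2-fold and 1 lower, with a median of 0.01. The 8 were Msgn1, Tbx6, Rspo3, Foxc1, Dll3, Aldh1a2, Cited1 and Dll1. Msgn1 and Tbx6 here, and Hoxb1, Cyp26a1 and Aplnr in later lists, are the genes that mark this comparison. Their place in these counts is therefore no separate support. Dll1 (1.10) averaged probes at 0.36 and 1.85. Dll3, a Notch ligand of the presomitic mesoderm that acts inside the cell, was at 1177 with CHIR and 231 with CHIR and PD, against 209.7 untreated. Aldh1a2, which makes retinoic acid in mesoderm, was at 120.5 and 65.5, against 33.4. Another 14 stayed within 2-fold. They include Hes7, the oscillating repressor of the segmentation clock (-0.19), Mesp2, which sets the somite boundary (0.29), Ripply2 (-0.76), Meox1, a somite homeobox factor (-0.23), and Pax3 (-0.54). Tcf15, a bHLH factor of somites that is also made in epiblast, was lower, at 130.4 with CHIR and 465 untreated.

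Lateral, cardiac and extraembryonic mesoderm genes showed little difference. Of 16 measured, 1 (Kdr) was higher by at least 2-fold and 0 lower, with a median of 0.02. Among all genes 1.77% were higher and 0.929% lower. Hand1, a bHLH factor of extraembryonic and lateral mesoderm, was at 39.3 with CHIR and 61.3 untreated, and the blood factor gene Tal1 at 92.2 and 99.0. In the list of definitive endoderm and node genes, 4 of 13 were higher by at least 2-fold and 1 lower (median 0.25). The 4 were Cer1, Gsc, the forkhead gene Foxa1 (2.14) and the chemokine receptor gene Cxcr4 (1.58). Sox17 and Foxa2, which define endoderm, were at 0.55 and 0.83, and Noto, the node homeobox gene, was at 39.0 with CHIR and 37.9 untreated. Trh, the precursor of thyrotropin-releasing hormone, was the lower one, at 761 with CHIR and 2145 untreated.

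Large differences among Hox genes lay at 1 end of 1 cluster. Of 36 Hox genes measured, 2 were higher by at least 2-fold and 0 lower, namely the neighbours Hoxb1 and Hoxb2, with a median over the list of -0.02. Hoxb2 was at 1102 with CHIR and 219 with CHIR and PD, against 34.4 in untreated EpiLC, and at 34.1 in mESC with CHIR and 33.7 in untreated mESC. Next to them, Hoxb3 was at 0.25 and Hoxb4 at 0.06. The other 34 Hox genes lay between -0.81 (Hoxd13) and 0.43 (Hoxd1), and with values shifted to a lowest of 4 Hoxd13 would be at -1.17. On both arrays 17 of the 36 were under an intensity of 64, where differences are compressed.

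**Figure D3:**
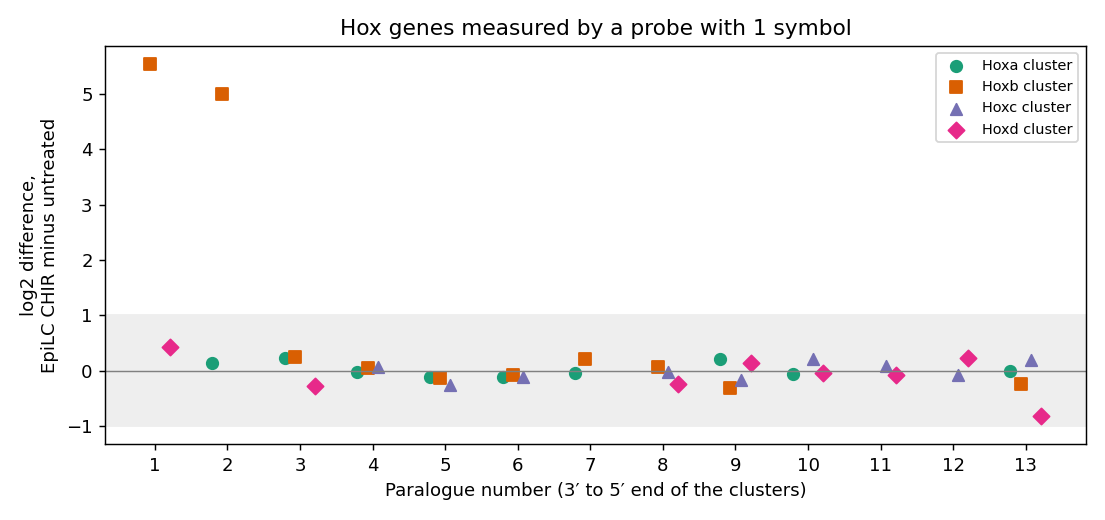
Log2 difference, EpiLC with CHIR minus untreated EpiLC (vertical), of the 36 Hox genes measured, by paralogue number (horizontal) and cluster (colour and shape), 1 array a group. The 2 squares far above the grey band of less than 2-fold are Hoxb1 and Hoxb2.

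In the list of caudal factors and Hox cofactors a larger share of genes was higher than among Hox genes. Of 13 caudal factors and Hox cofactors measured, 7 were higher by at least 2-fold and 0 lower (median 1.12). Cdx1, a caudal homeobox gene and Wnt target, was at 153 with CHIR and 202 with CHIR and PD, against 20.4 in untreated EpiLC. Cdx2, its relative with a role in the tail bud and in trophectoderm, was at 143 and 260.5, against 32.0. Both were higher again with PD, which sets them apart in these values from Msgn1 and Tbx6. Sp8, a zinc finger factor of the tail bud, was higher by 2.24 and Meis2, a Hox cofactor, by 2.10, whereas Cdx4 was at -0.01. Nkx1-2, a homeobox gene of the caudal epiblast, was at 1.12 as a mean of 2 probes that stood at -0.01 and 2.25. Gbx2 (1.61) likewise averaged probes at 0.47 and 2.75.

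Of 21 negative feedback and target genes of the Wnt pathway measured, 7 were higher by at least 2-fold, 1 was lower and 13 stayed within 2-fold (median 0.32). Dkk1, a secreted blocker of the Lrp5 and Lrp6 co-receptors, was at 559 with CHIR and 101 with CHIR and PD, against 44.5 untreated. Sp5, a zinc finger repressor that is a direct Wnt target, was at 335 and 491, against 45.0, and Nkd1, which restrains Dishevelled, was at 344 and 742, against 75.0. Sp5 and Nkd1 were highest with both inhibitors and Dkk1 with CHIR alone. Tnfrsf19 (1.32), Apcdd1 (1.29) and Rnf43, a ligase that removes Frizzled receptors (1.04), completed the 7 with Cdx1. Axin2, the scaffold used most often to report the pathway, was just under 2-fold, at 307 with CHIR and 341 with CHIR and PD, against 165 untreated (0.90). Lgr5 (0.32), Notum (0.38), Nkd2 (-0.24) and Ccnd1 (-0.56) stayed within 2-fold, and Myc, often listed as a target, was lower at 276 with CHIR and 721 untreated.

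RNA levels of the genes whose proteins carry the signal inside the cell mostly differed by less than 2-fold, and protein was not measured. Of 17 Tcf/Lef factors, beta-catenin and destruction complex genes measured, 0 were higher by at least 2-fold and 2 lower (median 0.11). Ctnnb1, which encodes beta-catenin, was at 1510.0 with CHIR and 1441 untreated, and Gsk3b, which encodes a target of CHIR, at 869.5 and 703. Tcf7l1, the family member that mainly represses in pluripotent cells, was at 357 with CHIR and 665 with CHIR and PD, against 924 untreated. Tle4, a Groucho corepressor, was at -1.17, while its relative Tle3 was at 0.86 and Lef1 at 0.23.

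Among Wnt ligands, receptors and modulators, 6 of 36 were higher by at least 2-fold and 0 lower (median 0.12). Wnt3a, the ligand that maintains the tail bud, was at 232 with CHIR and 60.0 with CHIR and PD, against 61.0 untreated. Wnt5a, a ligand of cell movement, was at 496 and 494, against 155, so that it was as high with PD as without, in contrast to Wnt3a. Frzb, a secreted Wnt antagonist, was at 328 and 35.1, against 27.2. Wls, which carries Wnt proteins to the cell surface, was higher by 1.21 and Wnt5b by 1.03. Wnt3, the ligand that starts the streak, was within 2-fold (0.70), as were Wnt8a (0.79), Fzd7 (-0.81) and Sfrp2 (-0.87).

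Notch genes differed in part. Of 23 Notch pathway and clock genes, 5 were higher by at least 2-fold and 0 lower (median 0.11). They were Dll3, Dll1 (1.10), the receptor gene Notch1 (1.21), the coactivator gene Maml3 (2.34) and Hes1, a repressor induced by Notch, at 667 with CHIR and 232 untreated. The glycosyltransferase gene Lfng, which modifies Notch in the clock, was at 0.33 and the target Nrarp at 0.43.

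Most FGF and ERK genes stayed within 2-fold. Of 27 measured, 1 (Fgf8) was higher by at least 2-fold (3.7%, against 1.77% of all genes). Lower were 2, Fgf4 and Fgf15 (7.41%, against 0.929% of all genes), and the median was -0.01. Fgf15 (-1.77) averaged probes at -3.10 and -0.43. The feedback inhibitor gene Spry4 was at 338 with CHIR and 22.3 with CHIR and PD, against 346 untreated, so the array with PD was low and the other 2 were alike. The phosphatase gene Dusp6 was at 0.28, the Ets factor genes Etv4 and Etv5 at 0.10 and -0.73, and Fgf5 at -0.71. Fgfr1, the receptor through which FGF acts in epiblast, was at 744 with CHIR and 399.8 untreated.

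Genes of Activin and Nodal signalling, which the Activin A in the medium feeds, went both ways. Of 21 measured, 3 were higher by at least 2-fold and 2 lower (median 0.09). Fst, which encodes follistatin, an antagonist that binds Activin, was at 4127 with CHIR and 1152 with CHIR and PD, against 1124 in untreated EpiLC. Cer1 and Lefty2 (1.25), both inhibitors of Nodal, were the other higher genes. Smad7, an inhibitory Smad, was at 69.3 and 151, against 408, and Gdf3 was the other lower gene. Nodal itself (-0.09), its co-receptor gene Tdgf1 (-0.29), Foxh1 (0.19), Smad2 (0.09) and Lefty1 (-0.76) stayed within 2-fold.

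In the BMP list, 3 of 21 genes were higher by at least 2-fold and 1 lower (median 0.21). The ligand gene Bmp7 was at 577 with CHIR and 257 with CHIR and PD, against 88.8 untreated, and Bmp2 was higher by 1.42. Among the Id genes, which encode inhibitors of bHLH factors, Id1 was at 1.06, Id3 at 0.15 and Id2 at -1.59, so members of 1 family lay on both sides. Of 16 retinoic acid genes, 3 were higher and 1 lower (median 0.02). The degrading enzyme gene Cyp26a1 and the synthesising enzyme gene Aldh1a2 were both among the higher ones, with Crabp2, a retinoic acid binding protein (1.35). Cyp26b1 and Cyp26c1, relatives of Cyp26a1, were at -0.35 and -0.15, and the response gene Rarb, a receptor induced by retinoic acid, was at 36.9 with CHIR and 34.5 untreated. Dhrs3, which turns retinaldehyde back into retinol, was the lower one (-1.04).

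The apelin receptor gene and 1 of its ligand genes were higher. Apln, that ligand, was at 5177 with CHIR and 842 with CHIR and PD, against 878 in untreated EpiLC, and at 92.3 in mESC with CHIR and 84.2 in untreated mESC. Apela, the second ligand of the same receptor, was lower, at 77.7 with CHIR and 268 untreated. The receptor Aplnr and the ligand Apln thus had their highest value on the same array, and Apela did not. Of 11 apelin and chemokine genes measured, 3 were higher by at least 2-fold and 2 lower, the fifth being the chemokine gene Cxcl12 (-1.49), whose receptor gene Cxcr4 was among the higher ones.

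Of 25 cadherin and EMT (epithelial to mesenchymal transition) genes, 6 were higher by at least 2-fold, 0 were lower and 19 stayed within 2-fold (median 0.11). Cdh2, which encodes N-cadherin, was at 1554 with CHIR and 472 with CHIR and PD, against 253 untreated. Cdh11, a mesenchymal cadherin, was at 309.8 and 48.7, against 53.3, and Snai1, the repressor of E-cadherin in the streak, was at 141 and 88.5, against 48.9. All 3 had their highest EpiLC value with CHIR alone. Fn1 (fibronectin, 1.83), Vim (vimentin, 1.17) and Cldn4, a claudin of epithelia (1.66), were also higher. Cdh1, which encodes E-cadherin, was at 753 with CHIR and 859 untreated, Epcam at -0.31 and the splicing factor gene Esrp1 at -0.20.

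Guidance molecules formed one of the broader groups. Of 32 Eph, ephrin and guidance genes, 9 were higher by at least 2-fold and 1 lower (median 0.42). They included Plxna2, Ntn1, which encodes netrin (2.74), the Slit ligand genes Slit2 (2.42) and Slit3 (1.50), and Epha4, an Eph receptor that acts at somite boundaries (1.65). Efnb1 (1.62), Efna3 (1.33), Ephb3 (1.27) and Epha7 (1.05) made up the rest, and Sema3e was lower (-1.09). Of 27 matrix and integrin genes, 4 were higher and 0 lower (median 0.05), namely Fn1, the integrin gene Itga8 (1.76) and the laminin genes Lama1 (1.06) and Lamb1 (1.05).

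Many genes listed for the epiblast state were lower. Of 16 formative and primed epiblast genes, 10 were lower by at least 2-fold and 0 higher, with a median of -1.40, where 0.929% of all genes were lower. This list too was chosen with earlier results known, so its count is a description. Not all 10 were higher in untreated EpiLC than in untreated mESC. Dnmt3l was at 131 and 875 in that order and Foxd3 at 188 and 211, while Enpp3 was nearly alike at 1317 and 1242. The others of the 10 were higher in untreated EpiLC. Otx2, the homeobox factor that drives the formative state, was at 309.7 with CHIR and 59.0 with CHIR and PD, against 1025 in untreated EpiLC. Pou3f1, a POU factor of the epiblast, was at 123 and 145, against 538, and the serine kinase gene Pim2 was at 932 and 319, against 3021. In all 3 genes both treated EpiLC arrays lay under the untreated one. Foxd3 (-1.54), Sall2 (-1.50) and Sox3 (-1.03) were lower as well, while Zic2 (-0.23) and Fgf5 stayed within 2-fold.

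Of 15 core pluripotency genes, 7 were lower by at least 2-fold and 0 higher (median -0.55), and all 15 were below zero. Sox2, the factor that pairs with Oct4 and is also needed for neural fate, was at 106 with CHIR and 302 with CHIR and PD, against 599 untreated. Pou5f1, which encodes Oct4, was within 2-fold, at 881 and 558, against 1289.5, and Nanog was at 496 and 2498, against 709. The 3 factors thus differed by unequal amounts with CHIR alone, Sox2 most. Dppa2 (-2.52), its genome neighbour Dppa4 (-1.47) and the RNA-binding factor gene L1td1 (-1.81) were among the 7, with Utf1, Gdf3 and Fgf4. Sall4 (-0.31) and Lin28a (-0.24) were not.

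Naive genes were mostly dim in EpiLC, and 8 of 15 were under 64 on both arrays. Of the 15, 1 was at least 2-fold higher (Gbx2) and 2 lower, namely Nr0b1 (-1.44) and the zinc finger gene Rex2 (-1.71), with a median of -0.07. Klf5 was at 805 with CHIR and 459.6 untreated.

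Some of the genes for enzymes of DNA methylation were lower. Of 9 measured, 4 were lower by at least 2-fold and 0 higher (median -0.16). Dnmt3b, a de novo methyltransferase of the epiblast, was at 1279 with CHIR and 788 with CHIR and PD, against 4847 untreated. Its relatives Dnmt3a and Dnmt3l were at -1.31 and -1.84, and the oxidising enzyme gene Tet1 at -1.62, whereas its relative Tet2 was at 0.65. Dnmt1, the maintenance methyltransferase, was at 1067 with CHIR and 1101 untreated and its partner gene Uhrf1 at -0.09. Of 15 germline genes, many of which are silenced by methylation, 5 were lower and 0 higher (median -0.46). They were Mael (-1.70), Dazl (-1.66), Hormad1 (-1.45), Ddx4 (-1.17) and Mov10l1 (-1.01), and 8 of the 15 were under 64 on both arrays.

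Of 18 cell cycle genes measured, 2 were higher by at least 2-fold and 3 lower (median -0.06). Ccnd2, a D-type cyclin, was at 992 with CHIR and 969 with CHIR and PD, against 227 untreated, and Cdkn1a, which encodes the CDK inhibitor p21, was at 1910.2 and 2764, against 732. Mycn, the Myc gene of epiblast and mesoderm, was at 174 and 218, against 676, and Myc and Ccne1 (-1.02) were the other lower genes. Ccnd1 was at -0.56. The proliferation gene Mki67 was at 1069 with CHIR and 1024 untreated and Top2a at 1636 and 1660.4. Among 11 p53 target genes Cdkn1a was the only one at least 2-fold different (median 0.02).

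In the stress and metabolism lists, single genes stood out. Of 18 amino acid and ER stress genes, 2 were higher by at least 2-fold and 1 lower (median 0.18). Ddit4, an inhibitor of mTORC1, was at 2255 with CHIR and 2286 with CHIR and PD, against 314 in untreated EpiLC, and Vldlr was higher by 1.71. The stress factor genes Atf4 and Ddit3 were at 0.20 and 0.54, and the arginine and lysine transporter gene Slc7a3 was lower (-1.13). Of 20 glycolysis and hypoxia genes, 2 were higher and 0 lower with a median of 0.46, namely the glucose transporter gene Slc2a3 (1.11) and Egln3 (1.14), an oxygen sensor. Ribosomal protein genes lay between -0.41 and 0.21 with a median of 0.05. Of these 15 genes 0 were past 2-fold, where 1.77% of all genes were higher and 0.929% lower.

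Markers of other cell types were looked at for the whole list each time. Of 18 primitive and visceral endoderm genes, 4 were higher by at least 2-fold and 1 lower (median 0.30), with a summed intensity of 3522 with CHIR and 2006 untreated. The 4 were Pdgfra, Gata6 (619 with CHIR and 85.9 untreated), Lama1 and Lamb1. A sum is weighted towards bright genes, such as Lamb1 at 1149 with CHIR and 555 untreated. Gata4 (105 with CHIR and 56.4 untreated) and Foxa2 (311 and 175) were within 2-fold. The secreted protein genes of visceral endoderm, Afp (63.3 and 46.2), Ttr (45.2 and 66.2) and Apoa1 (44.7 and 52.2) were within 2-fold too. The part of such cells in the mesoderm result was not tested.

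Of 12 trophoblast genes, Cdx2 and Krt8 (1.23) were higher by at least 2-fold and 0 lower, with sums of 2625 with CHIR and 1605 untreated. Krt8, at 1102 and 470, weighs heavily in these sums, and the list's median was 0.02. Elf5, which defines trophoblast stem cells, was at 62.1 and 64.5. Of 18 neural and anterior genes, 0 were higher and 1 (Sox3) lower, with sums of 2601 and 2616. Of 12 fibroblast markers, 0 were higher and 1, the smooth muscle actin gene Acta2 (-1.28), was lower, with sums of 1764 and 1907. Pdgfrb was just under 2-fold higher, at 203 with CHIR and 102 untreated (0.99), and Fbln1 was at 0.81. The median of the fibroblast list was -0.10. Blood and endothelial genes (14 measured) and two-cell-like genes (5 measured) had 0 members past 2-fold in either direction. Of all genes 1.77% were higher and 0.929% lower, so 0 in lists this short says little about these genes. With values shifted to a lowest of 4, Pecam1 would be lower and Hba-x higher by over 2-fold. No listed gene is at 0, since 16 is the lowest value of the table.

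**Figure D4:**
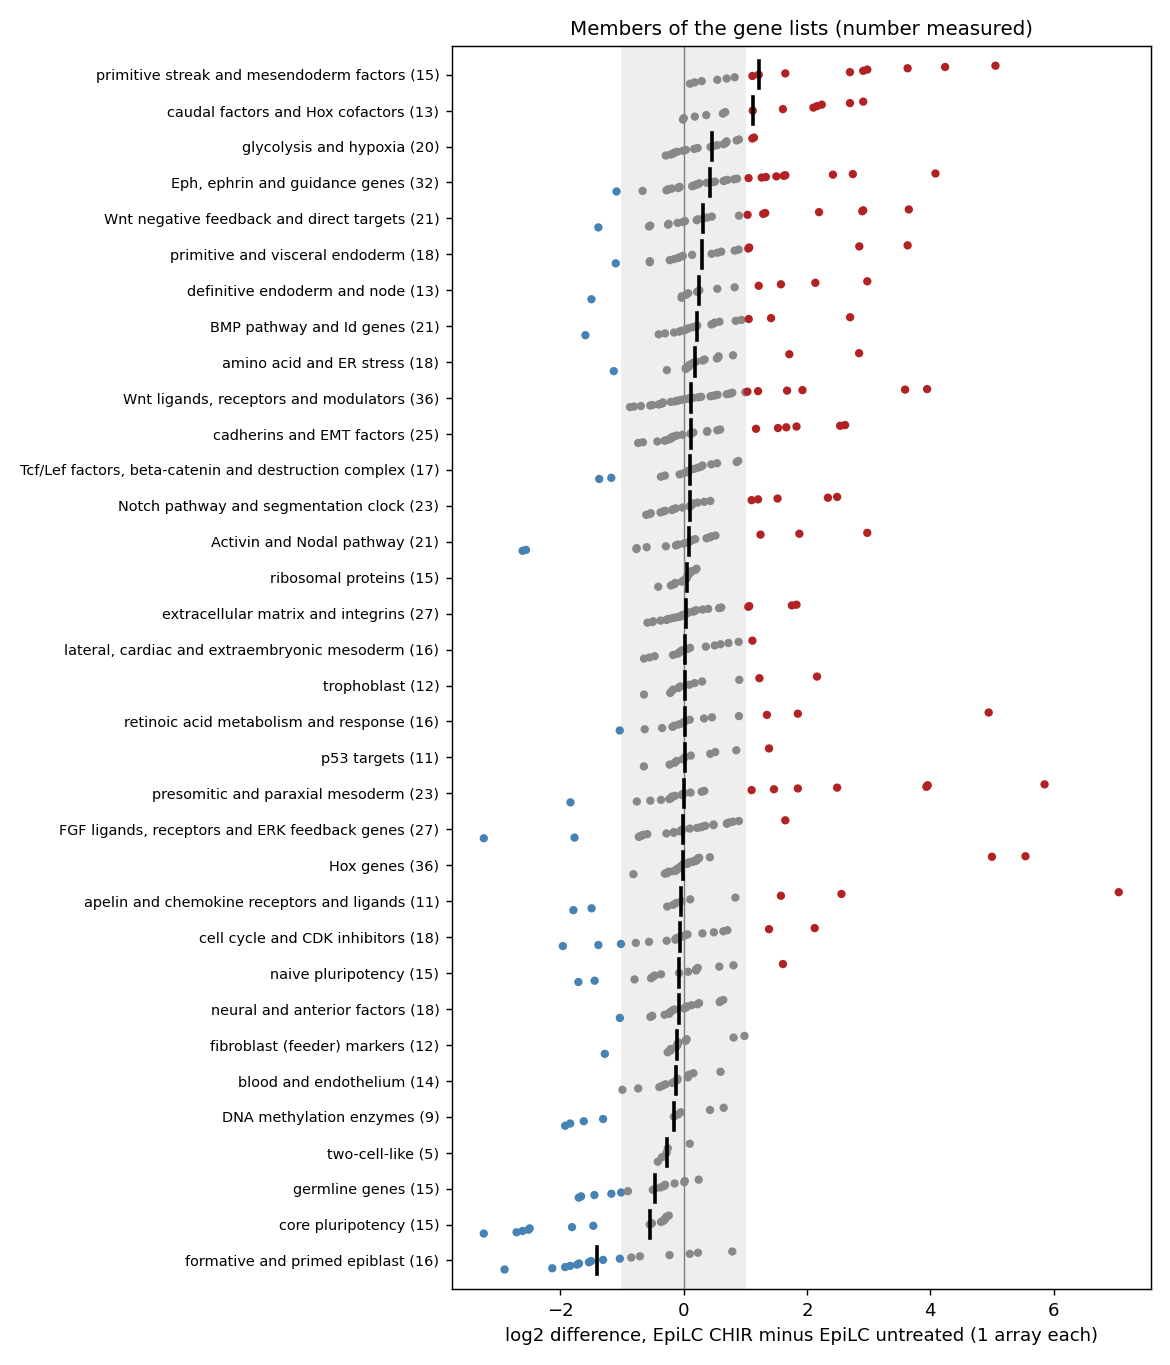
Log2 difference, EpiLC with CHIR minus untreated EpiLC (horizontal), of each measured member (points) of the 34 gene lists (rows, number measured in brackets), ordered by median (black bars). Red points are at least 2-fold higher, blue points lower by at least 2-fold and the grey band is less than 2-fold. At the top, the streak list's median is 1.22, and at the bottom the formative list's is -1.40.

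CHIR gave more large differences in EpiLC than in mESC. Genes higher by 2-fold or more were 1.77% in EpiLC and 0.185% in mESC (41 genes), genes lower were 0.929% in EpiLC and 0.153% in mESC (34 genes), and whether the 2 states differ was not tested. The 22 genes at least 2-fold higher in both states are 5.61% of those higher in EpiLC and 53.7% of those higher in mESC. They include the Wnt targets Sp5, Dkk1, Tnfrsf19 and Cdx1, the streak gene Mixl1, and Cdx2, Hoxb1, Rspo3, Lefty2 and Cdkn1a. Lower in both were 12 genes, which are 5.83% of those lower in EpiLC and 35.3% of those lower in mESC, among them Otx2, Pim2, Mycn, Enpp3, Calcr and Lrp2. Across all 22180 genes, which are not independent replicates, the CHIR differences of the 2 states had a Pearson r of 0.30 and a Spearman rho of 0.23. No gene was at least 2-fold higher in 1 state and at least 2-fold lower in the other. With 41 and 34 genes past 2-fold in mESC, few could have been.

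Several genes with large differences in EpiLC had small values in mESC. Msgn1, Tbx6, Lhx1 and Foxc1 were at 0.12, -0.05, -0.19 and 0.01 in mESC, and Sox2, Dppa2 and Gdf3 were at -0.05, -0.39 and -0.16. For the streak list the median was 1.22 in EpiLC and 0.12 in mESC. The formative list was lower in both states, with medians of -1.40 and -0.75, and 3 of its members were at least 2-fold lower in mESC. Otx2 was at -1.73 in EpiLC and -2.87 in mESC, and Pim2 at -1.70 and -1.76. For Wnt feedback and target genes the median was 0.32 in EpiLC and 0.53 in mESC, with 7 members at least 2-fold higher in EpiLC and 5 in mESC. Among them, Sp5 was at 2.90 in EpiLC and 1.78 in mESC, and Nkd1 at 2.20 and 0.68. Axin2 was higher by 0.90 and 1.02 in the 2 states.

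**Figure D5:**
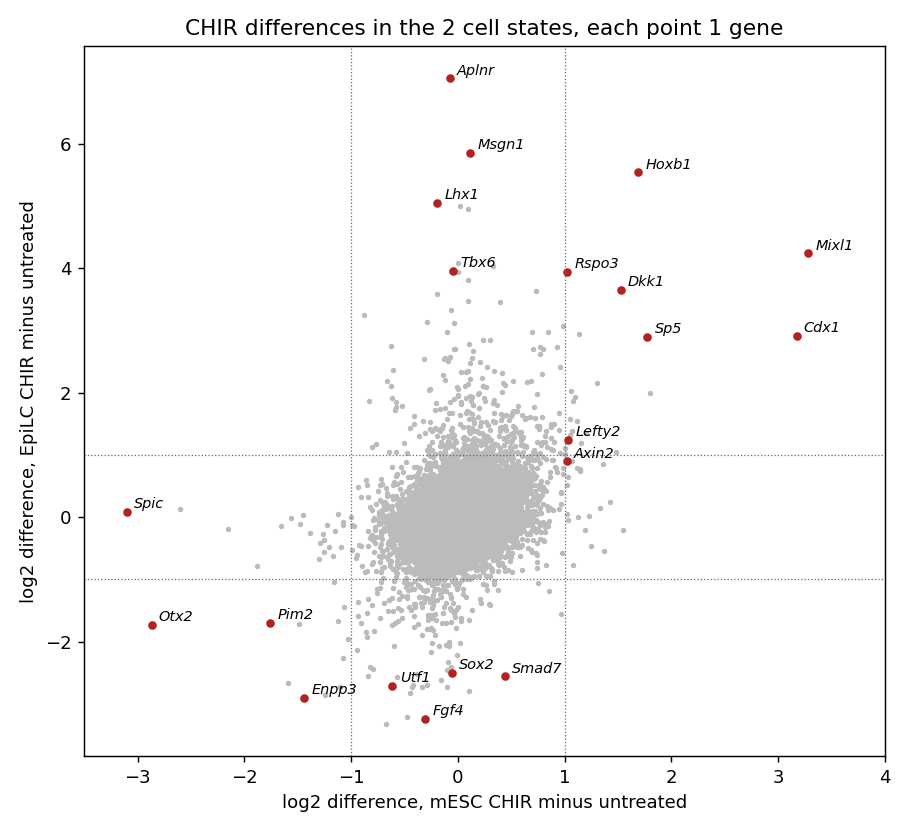
Log2 difference of CHIR minus untreated in EpiLC (vertical) against the same in mESC (horizontal), each point 1 gene and dotted lines at 2-fold. Sp5, Dkk1, Cdx1 and Mixl1 lie in the upper right, Otx2 and Pim2 in the lower left, and Msgn1 and Tbx6 high on the vertical axis near zero on the horizontal one.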

How the data were processed

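Values of 2 of 6 arrays, EpiLC with CHIR and untreated EpiLC, were compared, with the other 4 beside them. The deposited values are linear intensities per transcript cluster, which the authors made with GeneSpring GX 11.5, per the labels and design text. The way they were normalized between arrays and the genome build are not given in the sources used here. In all the table holds 33793 probes with 0 missing values. Probes with 1 symbol (23521) were kept, those with several (1814) or not listed (8458) were left out of the comparison, and log2 intensities were averaged per symbol with pandas 2.3.3 in Python 3.11.15, for 22180 genes in all (1082 had several probes). Averaged intensities are geometric means. No filter on dim genes and no scaling was added.

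With 1 array a group, no residual degrees of freedom exist for this pair, so no test was run and at least 2-fold was used to count. Counting was tested on simulated data. The named genes are the 15 at each end without predicted or clone symbols, 5 markers, and list members that are past 2-fold or among the 6 largest of a list. The other members were named by role, after their values had been seen. The 34 lists hold 596 distinct genes, 559 of them measured. Members and lists were chosen with earlier results of these data known. Promoters are from RefSeq (GRCm38.p6). Another 7 settings were tried.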

Additional observations from a re-analysis of the deposited data

Results flagged for a closer look

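Probes that cannot be assigned to 1 gene lie outside the comparison, and 9 of them were at least 8-fold higher with CHIR than on the untreated EpiLC array. Of 1814 probes with several symbols 15 (0.827%) were at least 2-fold higher and 16 (0.882%) lower. Of 8458 probes not listed with a gene 36 (0.426%) were higher and 52 (0.615%) lower. Among the genes compared, 1.77% were higher and 0.929% lower. The 4 with several symbols are all listed under small proline-rich Sprr2 genes, whose near-identical copies share probes. Probe 17399854 was at 22998 in EpiLC with CHIR and 4858 with CHIR and PD, against 845 untreated (log2 difference 4.77), and at 2939 in mESC with CHIR and 680.0 in untreated mESC. Probe 17399858 had a log2 difference of 4.99, and probes 17407393 and 17407390 had differences of 3.84 and 3.84. The 5 probes not listed with a gene were 17229891 (4.09), 17466798 (3.88), 17370309 (3.70), 17256823 (3.20) and 17548595 (3.15). Probe 17229891 was at 1460.0 in EpiLC with CHIR and 4063 with CHIR and PD, against 86.0 untreated, so that it was highest with both inhibitors.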

How the results depend on the processing

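The counts depended on how values near the lowest intensity of 16 were treated. With all values shifted so that the lowest is 4, 556 genes would be higher by at least 2-fold and 457 lower, and 58 lower by at least 4-fold. Shifted to 64, 229 would be higher and 114 lower, and 45 and 17 at least 4-fold. All of these 229 and 114 genes are among the 392 and 206. The shift to 64 shrinks each probe's difference, so this overlap is no separate check. Centring the arrays on their medians, quantile normalization, the brightest probe of a gene, counting probes singly and leaving out genes under 64 on both arrays kept the 4 counts within 1.5 times. Median centring moved all differences by 0.06 and gave 438 higher and 181 lower. Over 6 of the settings, no named gene past 2-fold changed direction. A shift, a filter or a move of 0.06 cannot reverse a 2-fold difference of a probe. The result is therefore informative only for quantile normalization and the brightest probe. The shift to 64 took 26 named genes under 2-fold and that to 4 took 8 past it. Median centring took 1 past it, Pdgfrb, which was at 0.99 without centring. Ccne1, Dhrs3 and Mov10l1 were just under 2-fold with median centring and with quantile normalization, Sox3 with the first, Epha7 with the second, and Gbx2 (0.47) with the brightest probe. No paired analysis was possible because each group is 1 array. With no replicates, the spread between cultures is unknown.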

Other observations

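A list of interferon response and antigen presentation genes was written after the values had been seen. Of 31 measured, 14 were higher with CHIR by at least 2-fold (against 1.77% of all genes), 17 stayed within 2-fold and 0 were lower, with a median of 0.66, and 0 were past 2-fold in mESC (median 0.00). The immunity GTPase gene Igtp was at 162 with CHIR and 75.0 with CHIR and PD, against 28.4 in untreated EpiLC, and its neighbour Irgm2 was higher by 2.10. Tap2, which carries peptides for antigen presentation, was higher by 1.68, the immunoproteasome gene Psmb8 by 1.30, the MHC class I light chain gene B2m by 1.16 and the ubiquitin-like Isg15 by 1.31. Other interferon genes stayed within 2-fold, among them Ifit1 (0.13), Ifit2 (-0.47), Ifit3 (-0.02), Rsad2 (-0.24), Bst2 (-0.12) and Irf7 (-0.01).

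Further families were chosen in the same way, after their values. Of 34 annexin, S100A, galectin and simple keratin genes, 9 were higher by at least 2-fold and 0 lower, led by Lgals3, which encodes galectin-3 (2.55), and the keratin gene Krt19 (2.23). S100a10 and Anxa2, whose proteins form a complex, were at 1.43 and 1.53. Of 26 imprinted genes, 4 were higher and 0 lower, namely Asb4 (2.33), Peg3 (2.04), its neighbour Usp29 (1.96) and Sgce (1.60). Of all genes 1.77% were higher and 0.929% lower, so 0 lower in either list says little. Among 336 genes named Zfp and a number, 6 were higher (1.79%, against 1.77% of all genes) and 10 lower (2.98%, against 0.929%).

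Genes past 2-fold were at times neighbours in RefSeq's order of protein-coding genes. Among 18984 protein-coding genes, 383 were higher and 190 lower. Of 18962 neighbour pairs, both genes were at least 2-fold higher in 18 and both lower in 16. Higher pairs include Hoxb1 and Hoxb2, Tmem176a and Tmem176b, and Psmb8 and Tap2. Lower pairs include Dppa2 and Dppa4, Fgf4 and Fgf15, H2ac1 and H2bc1, Zfp980 and Zfp600, and Kirrel2 with Nphs1. Copies of 1 family can share probes, so pairs such as Zfp980 and Zfp600 are uncertain.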
